A study of Danio rerio with 12 samples.

Results

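Sibling microglia of the zebrafish brain at 3 days post fertilisation (dpf) are described here by the genes that filled their RNA. The libraries were chosen by their labels, and they are the 3 sibling tubes (replicates 1, 2 and 3) of a series of 12 tubes. From these tubes the genes with 10 or more counts in all 3 were taken, 3741 of the 35117 gene IDs in the table and of the 10610 with a count in at least 1 sibling tube. The series set siblings beside mutant fish, and the other 9 tubes were not used here. All fish carried Tg(mpeg1:DsRedx), in which the promoter of the macrophage gene mpeg1 drives a red fluorescent protein. Brains of about 10 embryos were dissected and dissociated, and red cells were picked by hand, 3 cells to a tube, so that a tube can hold cells of several embryos. RNA with a poly(A) tail was amplified by Smart-seq2, a method made for single cells. The labels give the genotype only as siblings, and they do not say whether these fish carried a mutant copy. Nor do they say whether the 3 tubes came from separate dissociations, so the SDs below measure the spread between these tubes only.

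Microglia are the resident macrophages of the brain. In zebrafish they arise from early embryonic macrophages that enter the brain and take up dying neurons, and their lysosomes then digest the engulfed cells. They are known for transcripts of apolipoprotein E, for Csf1 receptor signalling, for phosphatidylserine receptors that recognise dying cells, and for the myeloid transcription factors of the PU.1 and C/EBP families. A library of picked cells counts RNA, so fewer cells and less RNA per cell cannot be told apart.

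The 3 tubes held 12875857, 10699000 and 13059803 gene counts, and 7077, 7541 and 7665 genes with at least 1 count. Spike-in (ERCC) reads made up 0.342, 0.259 and 0.194% of the counts and were dropped. Levels are gene counts per 1000000 (CPM), given for replicates 1, 2 and 3 in that order or as mean ± SD (n = 3 tubes). Fold ranges between tubes are by library size, that is on these CPM, unless another scaling is named. They change with the scaling. CPM is not per transcript length, so a rank by CPM says which genes hold the reads, and not which gene has more molecules. No reads carried molecular identifiers, so any bound from counts covers counting error only. Many symbols are written in the capitals of human genes and stand for the zebrafish gene with that ID.

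The label microglia was checked against 16 lists of cell type markers. Of 19 gene IDs on the microglia list 13 passed the count limit, 3 were counted below it and 3 were at 0 in all tubes. Among the 20 markers written for this list, cx3cr1 and trem2 matched no symbol and were not scored. The list summed to 46724, 65626 and 55442 CPM, or 4.67, 6.56 and 5.54% of the counts. Most of this was apoeb, ccl34b.1 and apoc1, which together held 3.67, 5.89 and 4.86%. The list for macrophages and leukocytes had 21 of 27 IDs past the limit and summed to 11406, 10602 and 13899 CPM. Of its 23 written markers 2 matched no symbol. Both lists were high in every tube. MPEG1 (ENSDARG00000055290), the macrophage perforin, had 1975, 1747 and 2187 CPM, but the cells were picked by a reporter driven by an mpeg1 promoter, so its presence is no independent check. cd68, a lysosomal membrane glycoprotein of phagocytes, had 2110.4, 1817 and 1771 CPM. The actin bundling protein LCP1 of leukocytes had 1698, 1275 and 1971 CPM. These phagocyte genes passed the limit, which by itself requires counts in all 3 tubes.

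Some genes of both lists were at 0 or missing from a tube. P2RY13, a purine receptor, and the antigen presentation chaperones cd74a and cd74b were at 0 counts in all 3 tubes, as was tyrobp, an adaptor of myeloid receptors. GPR34 and a TGFBR1 ID (ENSDARG00000017494) of the microglia list were also at 0 in all 3. A count of 0 over the 3 tubes allows up to 0.0819 CPM at a floor of 3 counts over the group. This bound covers counting error only, and not RNA missed in capture or amplification. P2RY12, the purine receptor that marks ramified microglia in mammals, had 0, 27.0 and 50.1 CPM, so it was counted in replicates 2 and 3 and not in replicate 1. The scavenger receptor gene marco had 0.0777, 104 and 454 CPM, with 1 read in replicate 1. Neither gene met the count limit.

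Markers of other cell types were mostly at or near 0. Of the neuron list 18 of 22 IDs were at 0 and the list summed to 3.34, 2.52 and 0 CPM. The erythroid, the lens and retina and the mast cell and eosinophil lists had no count in any tube, and the lymphoid list summed to 16.4, 0 and 0.0766 CPM. The matched markers of these lists were thus at or near 0 in these picked cells. Some written markers matched no symbol and were not scored. They were 4 of 16 erythroid, 4 of 9 mast cell and eosinophil, 5 of 21 lymphoid and 2 of 15 lens and retina markers. Other blood lists had counts: the thrombocyte list summed to 0, 38.4 and 26.6 CPM and the haematopoietic progenitor list to 58.4, 26.3 and 41.3 CPM. The neutrophil list summed to 505, 627 and 658 CPM, held by NCF1, srgn, nccrp1 and adam8a, while lyz, EPX, mmp13a and npsn were at 0. NCF1 encodes a subunit of the oxidase that macrophages also use. The endothelial list summed to 75.1, 53.9 and 113 CPM and the epidermal and metaphocyte list to 81.2, 111 and 85.1 CPM, and no ID of either passed the limit in all tubes.

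The radial glia, oligodendrocyte and fibroblast lists each carried 1 or 2 genes past the limit. The radial glia list summed to 6338, 3717 and 9475 CPM, and nearly all of it was GLUL, the glutamine synthetase, with 6207, 3537 and 9316 CPM. GFAP, SOX2 and NOTCH3 of that list were at 0, and GJA1, a gap junction gene, had 103, 134 and 110.5 CPM. GLUL is known from macrophages as well as from glia. Of the oligodendrocyte list mbpb, a myelin basic protein gene, had 232, 29.3 and 22.1 CPM, while olig1, OLIG2, SOX10 and mbpa were at 0. It was high in replicate 1 only. Of the fibroblast and mural list TAGLN, an actin-binding protein, had 282, 18.8 and 418 CPM, and LUM, the proteoglycan lumican, had 78.1, 85.1 and 192 CPM. COL1A1, COL1A2, PDGFRA and PDGFRB were at 0. What part RNA of other cells had in these genes was not tested.

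**Figure D1:**
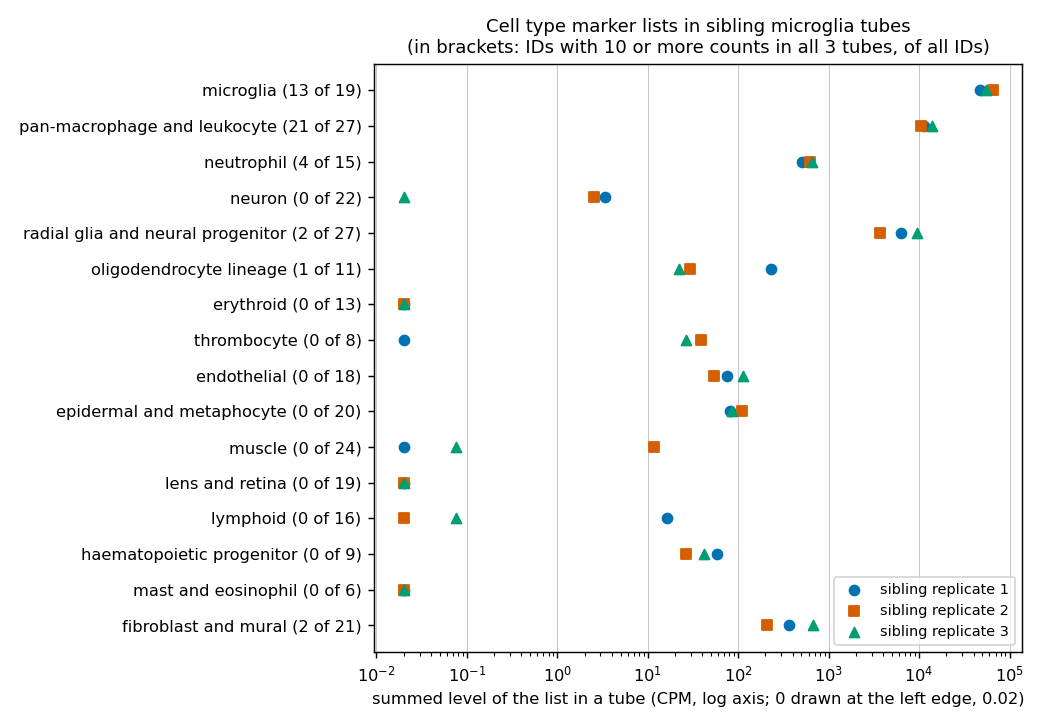
Summed CPM of each marker list (rows) in each of the 3 sibling tubes (points), on a log axis, with tubes at 0 drawn at the left edge. The microglia list lies between 46724 and 65626 CPM and the macrophage and leukocyte list between 10602 and 13899 CPM, while the erythroid, lens and retina, and mast cell and eosinophil lists are at 0 in all 3 tubes.

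The counts were concentrated in few genes. The 3741 genes held 92.5 ± 0.525% of the gene counts of a tube, and the 6869 other genes with a count held the remaining 7.47%. It took 97 genes to reach 50% of the counts, 738 to reach 75% and 2620 to reach 90%. The 10 genes with the most counts held 26.0 ± 3.94%, and the 100 with the most held 50.4 ± 4.74%. A mean of at least 100 CPM was reached by 1243 of the 3741 genes (33.2%), of at least 1000 CPM by 103 (2.75%), and of at least 10000 CPM by 11. The median mean level was 61.7 CPM. Of the 30 genes with the highest mean, 23 were among the top 30 of every tube.

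The gene ID with the most counts, ENSDARG00000080337, has no symbol in the files and had 67382, 123756 and 99209 CPM. It took 6.74 to 12.4% of a tube, so every share below depends on it. The next was apoeb, an apolipoprotein E gene, whose protein carries lipids between cells, with 26924, 42033 and 33907 CPM. In every tube it held the most counts of any gene with a symbol. The cytoplasmic actin genes actb2 and actb1 had 15271, 24907 and 26397 CPM and 10815, 9904 and 13644 CPM. Their coding sequences are nearly identical, so reads may be split between them. malat1, a long noncoding RNA kept in the nucleus, had 24457, 20319.8 and 14820.1 CPM. PSAP, the precursor of the saposins that help lysosomal enzymes break down sphingolipids, had 14361, 7136 and 10466 CPM. PSAP was highest in replicate 1, while apoeb was lowest there.

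**Figure D2:**
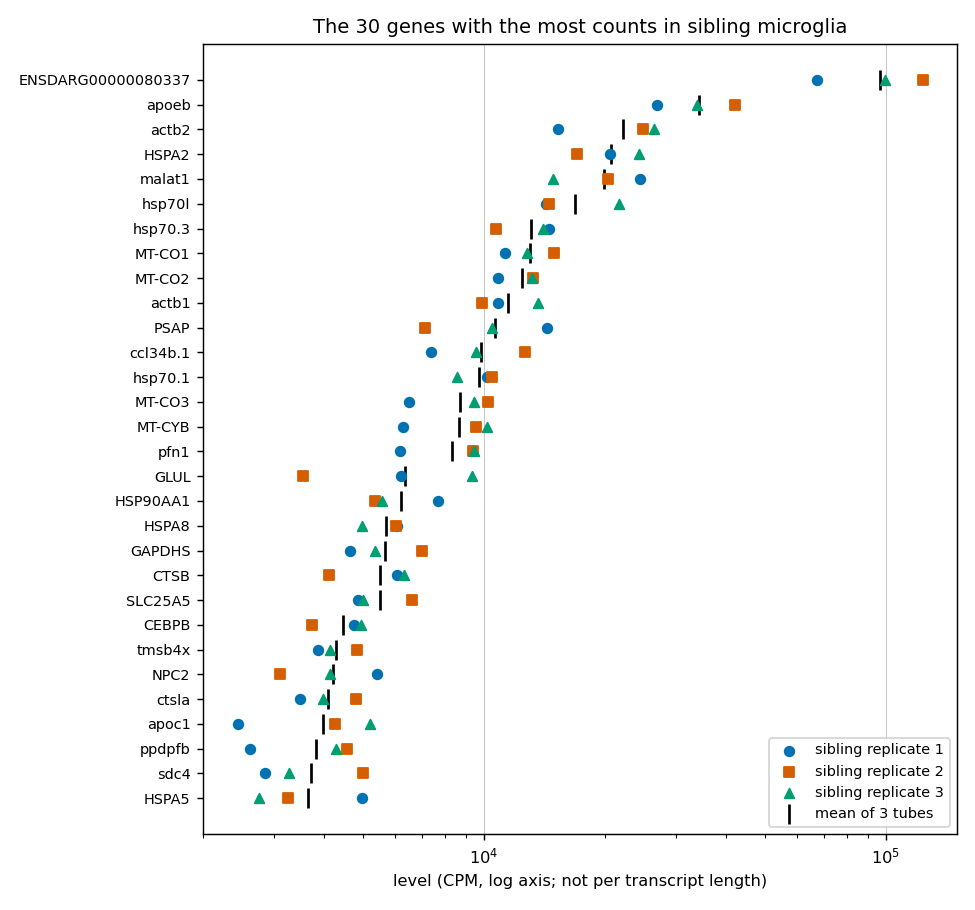
CPM of the 30 genes with the most counts (rows, ordered by mean) in each sibling tube (points) with the mean of 3 tubes (black bars), on a log axis. The unnamed gene ID at the top lies between 67382 and 123756 CPM, apoeb next between 26924 and 42033 CPM, and heat shock, actin and mitochondrially encoded genes fill much of the rest.

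Grouped by family, 1092 of the 3741 genes fell in at least 1 of 50 lists, and these held 56.1 ± 0.868% of the counts. Of all 35117 gene IDs 10.7% passed the limit and 69.8% were at 0 in all tubes, and the counts of each list stand beside these shares. Lists were matched by symbol, so ENSDARG00000080337 fell in none of them, and it alone held 9.68 ± 2.83% of the counts. Among the lists the largest share of counts belonged to chaperones and heat shock proteins, which fold other proteins. Of 121 IDs 58 were among the 3741 genes, and they held 9.89, 8.32 and 9.83% of the counts in the 3 tubes. The genes with the most reads were of the HSP70 family. HSPA2 had 20533, 17050.2 and 24327 CPM, hsp70l had 14213, 14499.8 and 21715 CPM, hsp70.3 had 14459, 10695 and 14006 CPM and hsp70.1 had 10187, 10455 and 8542 CPM. Copies of this family are alike in sequence, so reads may be split between them. Together they held 6.02 ± 0.798% of the counts. All 4 were high in every tube.

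Other chaperones added to that share. HSP90AA1, the stress-inducible HSP90, had 7676, 5364 and 5572 CPM, and HSP90AB1, the constitutive form, had 2919, 2987 and 2863 CPM. The tubes of HSP90AB1 lay within 1.04-fold by library size and 1.73-fold by spike-in scaling. HSPA8, the constitutive HSP70, had 6062, 6044 and 4976 CPM, and HSPA5, the HSP70 of the endoplasmic reticulum, had 4964, 3251 and 2745 CPM. dnajb1b, a co-chaperone of HSP70, had 2517, 1713 and 2942 CPM. Genes of the unfolded protein and amino acid stress list, 15 of 20 IDs, held 1.02 ± 0.335%. They included the transcription factor XBP1 (1300.3, 749.8 and 766 CPM) and DDIT3, also known as CHOP (1477, 342 and 428 CPM), both highest in replicate 1. By library size 12 of the 15 genes were highest there, beside 45.8% of all 3741 genes. With the median over all genes subtracted from each tube, 7 of the 15 were, beside 35.2% of all genes. All 3 tubes were dissociated and picked by hand before lysis, so an effect of that handling and the level in undisturbed cells cannot be told apart. The same limit holds for the lists below, among them the immediate early, cytokine, NF-kB and inflammatory lists.

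The immediate early list, genes that respond within minutes to a stimulus, had 30 of 62 IDs among the 3741 genes, with 1.41 ± 0.237% of the counts. mcl1a, an anti-apoptotic BCL2 relative, held the most of these reads, with 2497, 3329 and 2557 CPM. JUN, a subunit of the AP-1 factor, had 3202, 172 and 524 CPM, an 18.6-fold range with replicate 1 far above the others. ATF3, a stress-responsive transcription factor, had 997, 993 and 722 CPM, and FOS, the partner of JUN, had 703, 119.9 and 344 CPM. Members of the list thus differed in which tube was highest.

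Among secreted and lipid-carrying products, apolipoproteins held 2.94, 4.63 and 3.91% of the counts. Of their 23 IDs 2 (8.70%) passed the limit, beside 10.7% of all gene IDs. The 2 were apoeb and apoc1, a lipoprotein component, which had 2434, 4258 and 5200.2 CPM. Of the other 21, 20 were at 0 in all tubes, among them apoea, the duplicate of apoeb. The 1 remaining, apol1, was named after its values were seen and had 0, 15.9 and 0 CPM.

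Of 50 chemokine genes 5 passed the limit and 38 were at 0 in all tubes. ccl34b.1, a chemokine gene used as a marker of zebrafish microglia, held most of the chemokine reads, with 7376, 12617 and 9529.9 CPM. ccl34a.4 had 399.6, 105 and 594 CPM, ccl35.1 had 54.3, 792 and 145 CPM, and cxcl8a, an interleukin 8 gene that attracts neutrophils, had 348, 408 and 85.5 CPM. ccl38.1 had 27.9, 21.9 and 4.06 CPM. By library size only ccl34b.1 of the family lay within 2-fold across the tubes, at 1.71-fold. Under the other scalings used below its range was 2.12 to 2.28-fold.

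Of 25 cytokine genes 3 passed and 18 were at 0. il1b, the inflammatory cytokine interleukin 1 beta, had 859.8, 4079.9 and 2256 CPM, lowest in replicate 1. tnfb, a tumour necrosis factor gene, had 622, 1009 and 2159.9 CPM, while its duplicate tnfa was at 0 in all tubes. pdgfba, a platelet-derived growth factor chain, had 305, 65.9 and 53.1 CPM. Each of the 3 cytokines spanned more than 2-fold between tubes. csf3a, a colony stimulating factor of granulocytes counted in the inflammatory list, had 29.0, 787 and 163 CPM and was highest in replicate 2.

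Granulins and galectins were also well represented. The granulin genes grna and grnb, precursors of growth factor-like peptides that act in lysosomes, had 509.6, 377 and 653 CPM and 41.9, 59.0 and 24.5 CPM. Of 18 galectin and galectin-binding IDs 6 passed. lgals9l1 had 715, 755 and 1387 CPM and lgals2a had 576, 404 and 636 CPM, both within 1.94-fold. lgals3bp.1, a galectin-3-binding protein, had 2962, 1447 and 180.0 CPM, a 16.5-fold range with replicate 3 lowest. Of 28 cystatin and serpin IDs, which inhibit proteases, 5 passed, and cst14a.2 had 632, 488 and 478 CPM.

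Among chemotaxis and nucleotide receptors 10 of 85 IDs passed the limit and 64 were at 0 in all tubes. CMKLR1, the receptor of the chemoattractant chemerin, had the most reads, with 708, 702 and 855 CPM. ENTPD1, also known as CD39, which breaks down extracellular ATP, had 275, 329 and 451 CPM. By library size CMKLR1 lay within 1.22-fold and ENTPD1 within 1.64-fold. These ranges change with the scaling, and that of CMKLR1 was 2.13-fold by spike-in scaling. The chemokine receptor CCR9 had 615, 183 and 47.8 CPM, a 12.9-fold range with replicate 1 highest. cxcr3.3 and cxcr3.2, a pair that in zebrafish acts as a scavenging and a signalling chemokine receptor, had 92.9, 300.2 and 144 CPM and 194, 215 and 97.8 CPM. c5ar1, the receptor of the complement fragment C5a, had 243, 89.8 and 99.0 CPM, and ccr12a had 169, 76.5 and 103 CPM. adgrg1, an adhesion receptor also known as GPR56, had 105, 140.5 and 66.2 CPM. LPAR6 and lpar5a, receptors for lysophosphatidic acid, had 44.7, 41.3 and 36.8 CPM and 39.5, 25.4 and 37.0 CPM.

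Of 58 cytokine and growth factor receptors 13 passed. il10ra, the ligand-binding chain of the interleukin 10 receptor, had the most reads, with 168, 501 and 383 CPM. The Csf1 receptors csf1ra and csf1rb, on which microglia depend, had 208, 201 and 114 CPM and 90.4, 80.2 and 56.4 CPM. Across tubes csf1ra lay within 1.82-fold and csf1rb within 1.60-fold by library size. The other 10 ranged in mean from 10.8 ± 6.54 CPM for tnfrsf1b, which fell outside the naming rule, to 166 ± 137 CPM for tnfrsfa. They included ifngr2, a chain of the interferon gamma receptor, with 97.9, 189.6 and 195 CPM, and csf2rb with 198, 42.8 and 61.8 CPM. These 13 held 0.132, 0.154 and 0.117% of the counts in the 3 tubes.

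Engulfment and scavenger receptors had 10 of 32 IDs past the limit and 0.215 ± 0.0591% of the counts. havcr1, a phosphatidylserine receptor of the TIM family, held most of these, with 2235, 1083 and 1254 CPM. stab1, a scavenger receptor that also binds phosphatidylserine, had 47.9, 184 and 56.1 CPM, and mrc1b, a mannose receptor gene, had 31.2, 69.4 and 98.9 CPM. mertka, a kinase receptor for bridging proteins on dying cells, had 46.9, 10.7 and 51.5 CPM. LRP1, a large endocytic receptor, had 84.5, 59.9 and 15.4 CPM. Across tubes havcr1 lay within 2.06-fold and mertka within 4.79-fold by library size. Of 36 integrin IDs 6 passed. The beta chain of leukocyte integrins itgb2 had 44.9, 68.5 and 69.9 CPM, ITGAV had 58.5, 245 and 137 CPM, and itgae.1 had 201, 47.9 and 319 CPM.

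Most adaptors and kinases behind such receptors were present. Of 19 immune receptor adaptors and kinases 14 passed. fcer1gl, a signalling chain with an activation motif, had 884, 1052 and 1176 CPM, and its relative fcer1g had 32.8, 51.3 and 85.6 CPM. The phosphatase PTPN6, also known as SHP-1, had 543, 259 and 586 CPM, and INPP5D, the lipid phosphatase SHIP1, had 144, 208 and 397 CPM. These 2 act as brakes on such receptors. The kinases SYK, BTK, LYN and FGR had means from 63.4 ± 20.9 CPM for LYN to 142 ± 65.2 CPM for FGR. ptprc, which encodes the leukocyte phosphatase CD45, had 134, 162 and 110.1 CPM. laptm5, a lysosomal protein of leukocytes, had 440.4, 368 and 326 CPM.

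Of 37 innate pattern receptor and inflammasome IDs 6 passed. pycard, the inflammasome adaptor ASC, had 492, 198 and 446 CPM, and caspa, the caspase it recruits in zebrafish, had 123, 41.2 and 121 CPM. IRAK3, an inhibitor of Toll-like receptor signalling, had 122, 50.6 and 84.1 CPM. The sensors NOD1, IFIH1 and tlr8b averaged 50.9 ± 15.7, 34.9 ± 20.9 and 25.1 ± 22.5 CPM. MYD88, the adaptor of most Toll-like receptors, was at 0 in replicate 1 and had 310.0 and 169 CPM in replicates 2 and 3, so it missed the limit. Of the 7 phagocyte NADPH oxidase IDs 4 passed. The membrane subunits cyba and cybb had 217, 101 and 127 CPM and 52.3, 86.2 and 129 CPM. The cytosolic subunit NCF1 had 223, 372 and 277 CPM, and the GTPase rac2 that activates the complex had 511, 696 and 377 CPM.

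Antigen presentation and complement genes held few counts. Of 13 IDs of the MHC class II list 2 passed, and the other 11 were at 0 in all tubes. ifi30a, a lysosomal thiol reductase that prepares antigens, had 532, 791 and 567 CPM, and mhc2d4b, a class II gene, had 122, 143 and 75.9 CPM. Of 31 class I IDs 6 passed, led by mhc1zba with 215, 369.8 and 96.9 CPM and b2ml, a beta-2-microglobulin-like gene, with 126, 82.6 and 48.6 CPM. No complement gene of 30 passed, and 25 were at 0 in all tubes. The other 5 were c1qa, c1qb, c1qc, cfp and c7b, named after their values were seen. c1qc, a chain of C1q, had 122, 0.280 and 165 CPM, c1qa had 35.4, 0 and 0 CPM, and c1qb had 0, 0 and 13.6 CPM. No tube thus held all 3 C1q chains.

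Lysosomal genes were a large block. Of 19 cathepsin IDs, the proteases of the lysosome, 12 passed and the other 7 were at 0, so each was either present in all tubes or at 0 in all. They held 2.30, 1.74 and 1.89% of the counts. CTSB had 6081, 4106 and 6321 CPM, ctsla had 3485, 4790.4 and 3981 CPM, CTSD, the aspartic cathepsin, had 2845, 2721 and 3356 CPM, and CTSZ had 3124, 1845 and 2161 CPM. Each of these 4 lay within 1.69-fold across tubes by library size and within 2.08-fold by spike-in scaling. Their sum was 1.49 ± 0.129% of the counts. ctsl.1 had 3424, 119.9 and 242 CPM, a 28.5-fold range with replicate 1 far above the others. ctss2.1, a cathepsin S gene used as a macrophage marker, had 671, 1242 and 1052 CPM, and CTSK, the cathepsin known from osteoclasts, had 935, 923 and 589.9 CPM.

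Of 71 other lysosomal hydrolases and partners 40 passed. NPC2, which carries cholesterol inside the lysosome, had 5405, 3106 and 4124 CPM. LGMN, the asparaginyl protease legumain, had 2469, 1746 and 2838 CPM, and TPP1, a tripeptidyl peptidase, had 1352, 903 and 770.3 CPM. rnaset2, a lysosomal RNase, had 1476, 621 and 1538 CPM. NPC2, LGMN and rnaset2 were lowest in replicate 2, and TPP1 in replicate 3.

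The V-ATPase, the proton pump that acidifies lysosomes, had 20 of 29 IDs past the limit and 1.08, 0.872 and 0.929% of the counts. ATP6V1G1 had 1115, 1320.4 and 1427 CPM, ATP6V0C, the proton-conducting ring subunit, had 1150.0, 1086 and 845 CPM, and TCIRG1, an a subunit, had 499, 575 and 423 CPM. Subunits of both the membrane part and the soluble part were thus among the genes that passed. Of the lysosomal membrane list 22 of 33 IDs passed. LAMP2 had 653, 504 and 549 CPM, and SLC36A1, a proton-coupled amino acid transporter, had 417, 269.7 and 536 CPM. CD63, a tetraspanin of late endosomes, had 2126, 2614 and 2764 CPM, and tspan36 had 1858, 2490.4 and 1727 CPM, both among 12 of 38 tetraspanin IDs past the limit. Of 81 Rab GTPases, the switches of membrane traffic, 26 passed. RAB5C, of the early endosome, had 840.3, 711 and 818 CPM, and RAB14 had 338, 238 and 234 CPM.

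Solute carriers move small molecules across membranes. Of 443 IDs 72 (16.3%) passed and 269 (60.7%) were at 0 in all tubes, and those that passed held 2.04 ± 0.129% of the counts. SLC25A5, which exchanges ADP and ATP across the inner mitochondrial membrane, had 4853, 6615 and 5002 CPM. SLC7A7, an amino acid transporter needed by zebrafish microglia, had 1487, 1745 and 1623 CPM, and slc3a2a, the heavy chain such transporters pair with, had 1458, 1214 and 1153 CPM. SLC7A8, another light chain of this kind, had 666, 674 and 655 CPM, within 1.03-fold by library size and 1.73-fold by spike-in scaling. SLC40A1, the iron exporter ferroportin, had 1006, 1351 and 1108 CPM, and SLC35F6 had 1102, 1232 and 1195 CPM. SLC37A2, a sugar phosphate transporter used as a microglia marker, had 1222, 704 and 1008 CPM.

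Iron and lipid genes were present as parts of their lists. Of 20 iron IDs 11 passed. fthl27, a ferritin heavy chain-like gene, had 2262, 4542 and 3389.8 CPM, and HMOX1, which frees iron from haem, had 869, 208 and 562 CPM. Of 65 cholesterol and lipid IDs 10 passed and 41 were at 0. fabp4a, a fatty acid-binding protein, had 363, 597 and 579 CPM, PLIN2, a lipid droplet coat protein, had 313, 275 and 279.6 CPM, and ABCA1, the cholesterol exporter, had 175, 286 and 56.3 CPM. CH25H, which hydroxylates cholesterol, had 327, 176 and 42.9 CPM.

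The actin cytoskeleton list held 5.80, 6.70 and 7.55% of the counts, with 55 of 85 IDs past the limit. Beside actb1 and actb2, pfn1, the actin monomer-binding profilin, had 6167, 9368 and 9434 CPM, and tmsb4x, thymosin beta 4, which holds actin monomers, had 3870.0, 4836 and 4140.4 CPM. ARPC1B, a subunit of the Arp2/3 complex that branches filaments, had 3200.2, 2474 and 3966 CPM. All were among the 100 genes with the most counts, as were LCP1 and CORO1A, the coronin of leukocytes, with 1532, 1039.9 and 1373 CPM. Of 22 tubulin IDs 6 passed, and tubb4b had 1825, 909 and 1441 CPM. Of 31 annexin and S100 IDs 4 passed and 25 were at 0, and anxa3b had 362, 386 and 468 CPM.

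Among regulators, CEBPB stood far out by reads. This C/EBP transcription factor of myeloid cells had 4740.0, 3721 and 4938 CPM, and it was the only transcription factor of the myeloid list in the top 100. Of that list 27 of 116 IDs passed, with 0.972, 0.853 and 0.961% of the counts. The nuclear receptors NR4A1 and NR4A3, which respond quickly to stimuli, had 785, 764 and 465 CPM and 359.5, 573 and 616 CPM. spi1a, a PU.1 gene, had 420.0, 511 and 386 CPM and lay within 1.32-fold. SPI1, a second PU.1 gene (ENSDARG00000000767), had 38.9, 405 and 440.4 CPM, an 11.3-fold range with replicate 1 lowest. CEBPA had 418, 234 and 401 CPM and ets2 had 477, 584 and 295 CPM. MAFA, a large Maf factor, had 136, 158 and 215 CPM. IRF8, on which microglia depend, had 125, 37.9 and 191 CPM, and TFEC, a relative of the lysosomal regulator TFEB, had 153, 46.6 and 27.0 CPM.

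Of 40 NF-kB and STAT factors and partners 14 passed. nfkbiaa and nfkbiab, which encode the NF-kB inhibitor I-kappa-B alpha, had 1135, 2834 and 2492 CPM and 1208, 1805 and 2209 CPM. The NF-kB subunit REL had 129, 514 and 296 CPM, and NFE2L2, the regulator of antioxidant genes also known as NRF2, had 199.8, 356 and 343 CPM. STAT3 averaged 37.2 ± 17.1 CPM. The inhibitor genes held most of the reads of this list. Of the inflammatory list 18 of 38 IDs passed, and besides il1b it held ACOD1, which makes itaconate, with 589, 3247 and 1130.2 CPM, and cd83, an activation marker of antigen-presenting cells, with 859, 2208 and 1218 CPM.

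Energy metabolism lists differed in how many genes passed. All 13 IDs of the mitochondrially encoded list passed and held 4.07, 5.45 and 5.22% of the counts. The list was matched by symbol, so any mitochondrial gene ID without a symbol is not in this share. MT-CO1, a subunit of cytochrome oxidase, had 11251, 14915 and 12817 CPM, and MT-CYB, of the cytochrome bc1 complex, had 6271, 9538 and 10150.2 CPM. Of 96 nuclear respiratory chain IDs 86 passed, with 2.04 ± 0.281% of the counts, and ATP5F1B, the catalytic subunit of ATP synthase, had 2316, 1442 and 2473 CPM. Of 37 glycolysis IDs 17 passed and 14 were at 0 in all tubes. GAPDHS had 4634, 7014 and 5349.8 CPM, LDHB had 332, 890.4 and 1167 CPM and PKM had 738, 616 and 683 CPM. Among pentose phosphate, TCA and glutamate enzymes 39 of 57 IDs passed, led by GLUL and by the glutamate dehydrogenases glud1a, with 1384, 778 and 1444 CPM, and glud1b, with 1391, 487 and 995 CPM. Of 69 redox enzymes 31 passed, and PRDX1, a peroxiredoxin, had 1124, 983 and 1212 CPM.

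Lists of protein synthesis and turnover had more than 50% of their IDs past the limit. Of 84 cytoplasmic ribosomal protein IDs 81 passed, holding 3.46, 4.94 and 3.87% of the counts. RPS2 had 2139, 2349 and 2003 CPM and RPL3 had 1935, 2308 and 2035 CPM. Of 88 translation factor IDs 53 passed, and eef1a1l1, an elongation factor that brings tRNA to the ribosome, had 3135, 4577 and 2966 CPM. Of 59 proteasome IDs 40 passed with 0.461 ± 0.0892% of the counts, and PSMB4 had 239, 289 and 333 CPM. YBX1, an RNA-binding protein, had 1794, 1811 and 1767 CPM.

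Of 82 cell cycle IDs 7 (8.54%) passed and 43 (52.4%) were at 0 in all tubes. Replicate 1 held the most of these reads, with 0.182, 0.0482 and 0.0530% of the counts over all 82 IDs and 0.0924, 0.0327 and 0.0324% over the 7. PCNA, the sliding clamp of DNA replication, had 349, 27.3 and 20.8 CPM, CCND2, a cyclin of the G1 phase, had 125, 62.1 and 119 CPM, and MCM6, a subunit of the replication helicase, had 1.55, 26.9 and 27.1 CPM. RRM1, a subunit of ribonucleotide reductase, had 167, 44.3 and 25.3 CPM, and RPA2, which binds single-stranded DNA, had 100.5, 17.0 and 29.1 CPM. By library size 5 of the 7 genes (71.4%) were highest in replicate 1, and so were 45.8% of all 3741 genes. With the median over all genes subtracted from each tube, 4 of the 7 were highest there, beside 35.2% of all genes. MCM6, added after its values were seen, was lowest there by library size. mki67, the proliferation marker, was at 0 and was named after its value was seen. Of 52 interferon-stimulated IDs 8 (15.4%) passed and 33 (63.5%) were at 0, and the guanylate-binding proteins gbp1 and gbp2 had 378, 23.6 and 226 CPM and 134, 42.4 and 191 CPM.

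**Figure D3:**
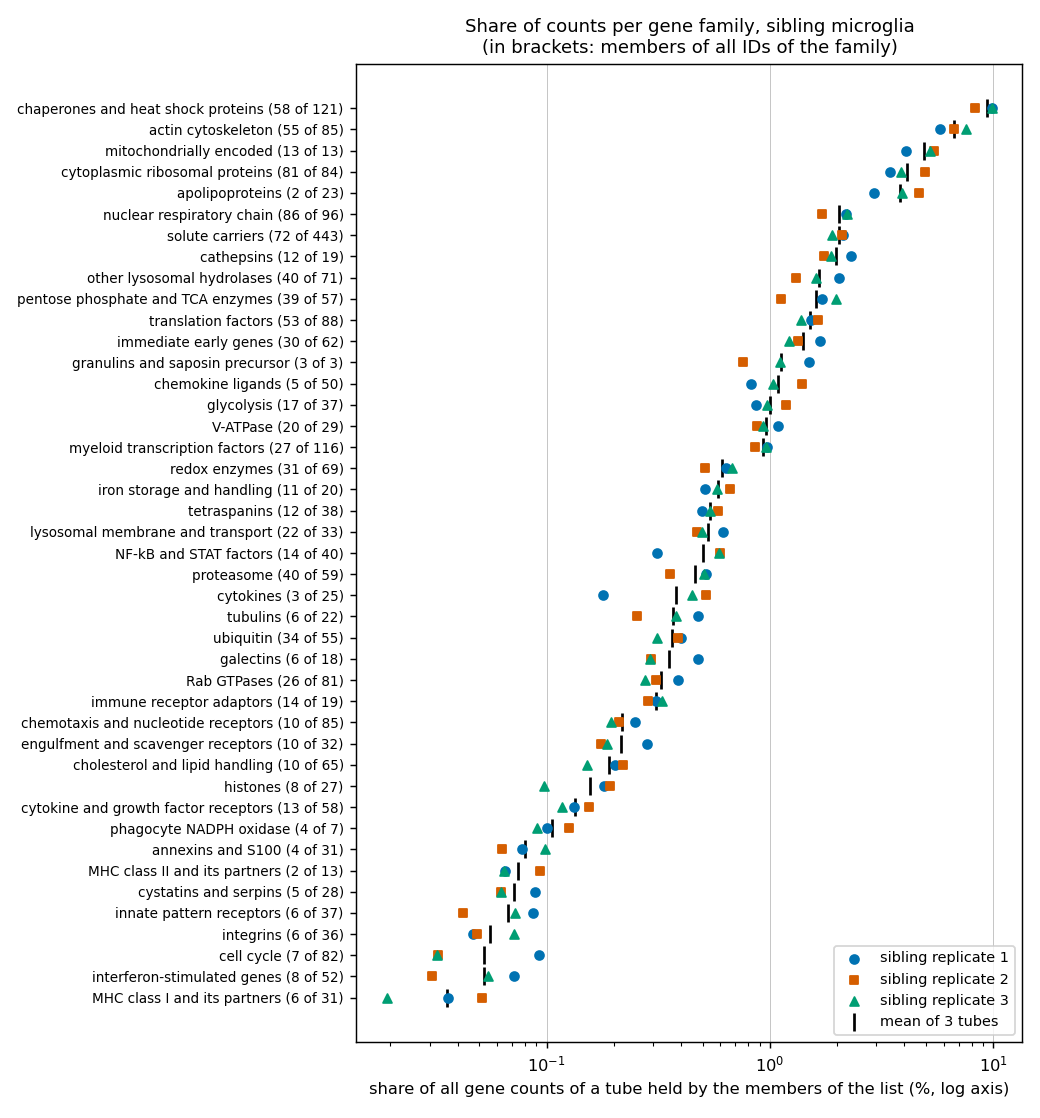
Share of all gene counts (percent, log axis) held by the genes of each family past the count limit (rows) in each sibling tube (points) with the mean (black bars). Chaperones, actin genes, mitochondrially encoded genes, ribosomal proteins and apolipoproteins lie at the top with means from 9.35 to 3.83%, and MHC class I genes at the bottom with 0.0357%.

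The spread between tubes was wide for most of the 3741 genes. The count limit left out 3363 genes with 10 or more counts in only 1 tube and 2456 with them in only 2. Genes at or near 0 in a tube could not pass, so the values below leave out their spread. Over the 3741 genes the median coefficient of variation (CV, the SD over the mean) was 50.3%, with quartiles of 30.1 and 72.1%. Counting of reads alone would give a median of 4.26%. The ratio of the highest to the lowest tube had a median of 2.78, and it was under 2 for 1197 genes (32.0%) and over 10 for 403 (10.8%). An intercept-only model in edgeR gave a common dispersion of 0.448. Its square root, which edgeR names the biological coefficient of variation, was 0.669. Without molecular identifiers it takes in spread from RNA capture and amplification as well as from the cells, and their parts were not tested. The spread was narrower for genes with more counts. The median CV was 22.5% for ranks 1 to 100, 28.8% for ranks 101 to 500, 41.3% for ranks 501 to 1000, 50.8% for ranks 1001 to 2000 and 60.3% for ranks 2001 to 3741. Each of these medians was far above that of counting error.

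**Figure D4:**
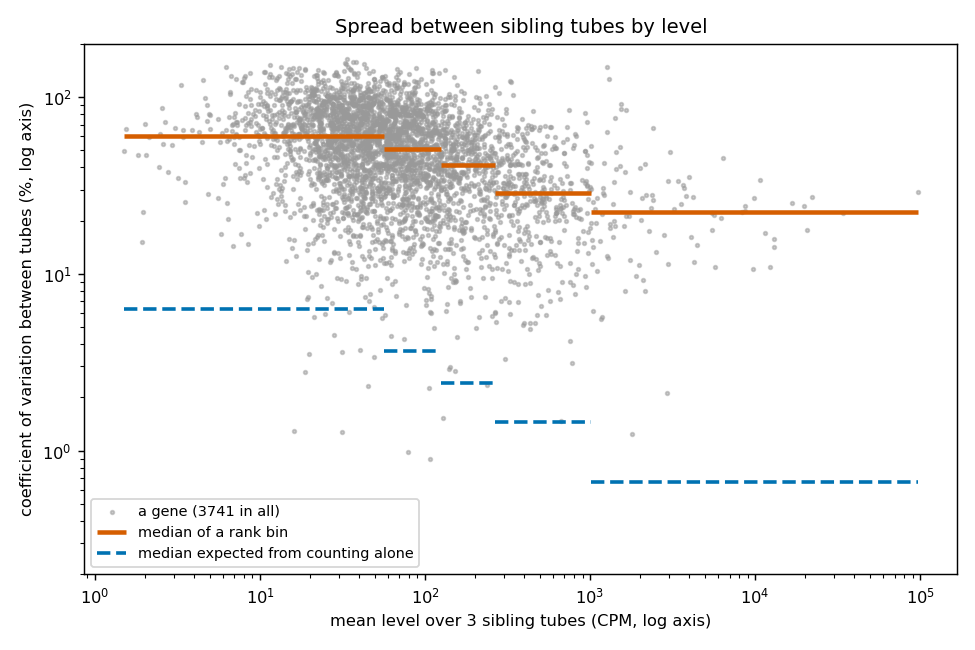
CV between the 3 sibling tubes (percent, log axis) against mean CPM (log axis), each point a gene. Orange lines mark the median of a rank bin, 22.5% in the highest and 60.3% in the lowest, and dashed blue lines the median that counting alone would give, 0.663 and 6.35%.

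Among genes with a mean of at least 100 CPM the steadiest was PPP1R10, a regulator of protein phosphatase 1, with 108, 108 and 107 CPM. The next were YBX1, mtdha, SLC7A8, ubap2b, HSP90AB1, COX7C, ube2d1b, PALD1 and EEF1B2. By library size all 10 lay within 1.06-fold. Under another scaling 0 of the 10 remained among the 10 steadiest, and their ratios were 1.19 to 1.32 with TMM, 1.18 to 1.31 with DESeq2 size factors and 1.68 to 1.84 with spike-in scaling. Which genes were steadiest thus depends on the scaling. By library size the widest was septin12, a cytoskeletal GTPase, with 0.932, 207 and 133 CPM, a 222-fold range. It was followed by TBC1D5, ABCE1, ECHS1, IP6K2, SRPRA, CACYBP, PFKFB4, NUCB1 and ptges3l. In ABCE1, which recycles ribosomes, the low tube was replicate 2, with 263, 2.52 and 64.6 CPM, and in PFKFB4, a glycolytic regulator, it was replicate 3, with 282, 41.0 and 6.81 CPM. The low tube thus differed from gene to gene. Of these 10 widest genes 9 remained among the 10 widest with TMM, 9 with DESeq2 size factors and 5 with spike-in scaling.

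Some genes were high in 1 tube and at 0 in another. Of 2009 genes that reached 100 CPM in at least 1 tube, 94 (4.68%) had 0 counts in another. Besides MYD88, f13a1b, a coagulation factor XIII gene, had 0, 239 and 149 CPM, and MCM4, of the replication helicase, had 226, 0 and 59.2 CPM. Others with high peaks were dnase1l4.1, cyth4b, DNAJB4, SLC25A36, UBR7 and saraf. At the count limit itself, mhc1lia and BBIP1 passed with 10 counts in their lowest tube, and IL16 and DGCR6 missed it with 9. ppp4r2a, crfb4 and zgc:158803 also passed at 10, and cep43, cd2bp2 and a gene with no symbol missed it at 9. Of 8 genes with a lowest count of 10 and 17 with 9, those named here had the highest means. They reached 31.9 to 107 CPM in their highest tube.

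The correlation between tubes was similar in the 3 pairs. Across the 3741 genes, which are not independent replicates, Pearson's r of log2 CPM was 0.695 for replicates 1 and 2, 0.712 for replicates 1 and 3, and 0.750 for replicates 2 and 3. In each pair between 54.4 and 57.5% of the genes lay within 2-fold. No tube held the same values as another.

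In some families most genes were high or low in the same tube. For each gene the log2 ratio of a tube to the geometric mean of the 3 tubes was taken, and the median over all 3741 genes was subtracted. On this scale 35.2, 33.0 and 31.8% of all genes were highest in replicates 1, 2 and 3. The shares of all genes that were lowest there were 34.1, 33.5 and 32.3%. Of the 81 ribosomal protein genes 69 were highest in replicate 2 and 65 lowest in replicate 1, with medians of -0.52, 0.41 and -0.01. The inflammatory list lay the same way, with medians of -0.99, 0.78 and 0.13, and 14 of its 18 genes were lowest in replicate 1. In both lists replicate 1 was thus the low tube. The inflammatory list was added after the data were seen. A gene can be in more than 1 list, as il1b is in the cytokine and inflammatory lists, so the lists are not independent of each other. Mitochondrially encoded genes had medians of -0.43, 0.24 and 0.11, and none of the 13 was highest in replicate 1.

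Cytokine receptors had medians of -0.89, 0.40 and 0.13, and NF-kB and STAT factors of -0.57, 0.13 and 0.22, both also low in replicate 1. Other families lay differently. The nuclear respiratory chain had 43 of its 86 genes highest in replicate 3 and 10 in replicate 2. Lysosomal hydrolases had 22 of 40 lowest in replicate 2, and redox enzymes 19 of 31 highest in replicate 3. Solute carriers had medians of 0.13, 0.04 and -0.10, close to those of all genes. The source of these shifts was not tested.

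**Figure D5:**
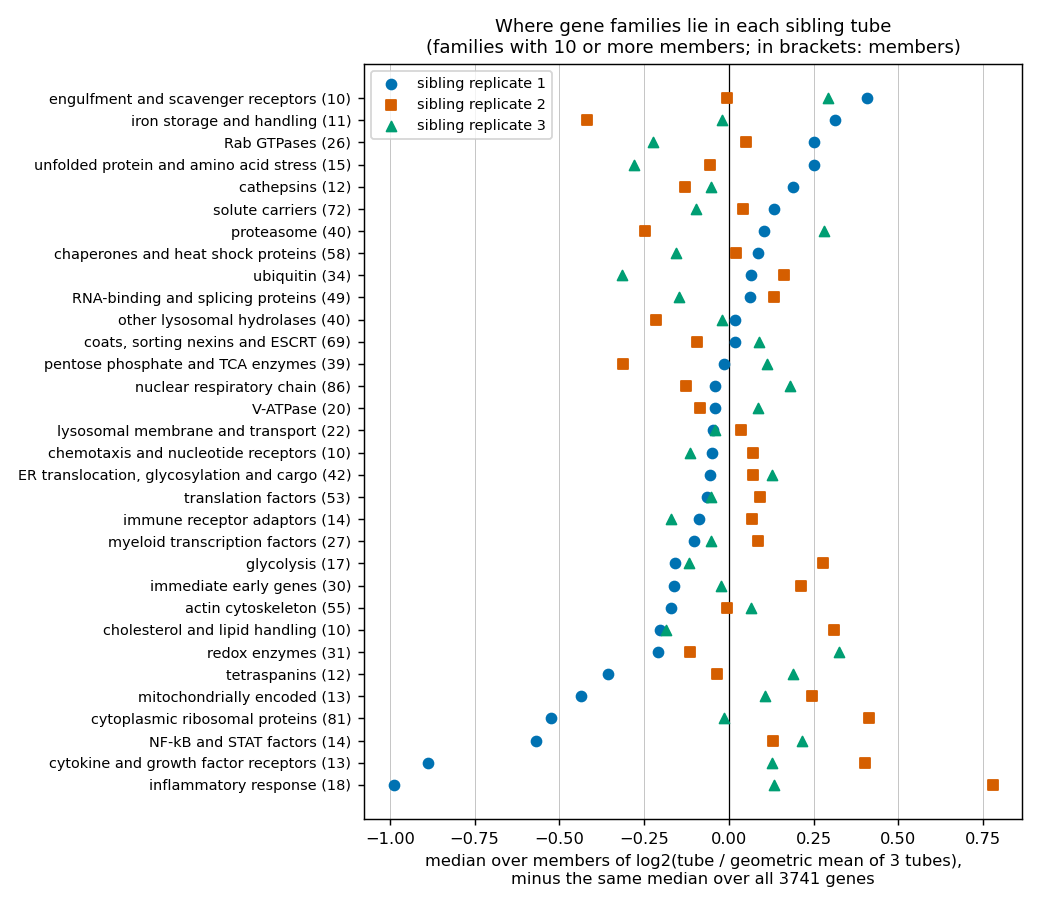
Median over the genes of each family (rows, families with at least 10 genes past the count limit) of the log2 ratio of a tube to the geometric mean of the 3 tubes, minus the same median over all 3741 genes. The inflammatory list spreads from -0.99 in replicate 1 to 0.78 in replicate 2, and ribosomal proteins from their low in replicate 1 to their high in replicate 2, while solute carriers stay near 0.

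Zebrafish keep many genes as duplicates named a and b. Only pairs with both symbols in lower case and a single gene ID per symbol were counted. Duplicates written in capitals, such as SPI1 beside spi1a, or sharing a symbol were therefore not covered. Of the 3741 genes 438 had a symbol that another gene ID also has. Of the pairs that were counted 160 had at least 1 copy among the 3741 genes. In 72 of these the other copy was at 0 in all tubes, in 48 it was counted but below the limit, and in 40 both copies passed. A further 147 pairs with a count had no copy past the limit. Over all 35117 gene IDs 69.8% were at 0 in all tubes and 10.7% passed. The 160 pairs were taken for having a copy past the limit, so their counts and these shares are of unlike sets. Whether a copy at 0 is particular to duplicates was not tested. Pairs with a copy at 0 included apoeb, ctsla, ppdpfb, tnfb and cycsb, whose partners apoea, ctslb, ppdpfa, tnfa and cycsa had no count. Of the 40 pairs with both copies, the same copy held more reads in all 3 tubes in 24. mcl1a held 77.8 to 92.1% of the reads of its pair, and pabpc1a 84.3 to 95.0%. nfkbiaa held 48.5 to 61.1%, so that neither copy led in every tube. These shares are of reads, not of molecules, since lengths were not used, and reads of near-identical copies may be split between them.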

How the data were processed

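The authors deposited 1 table of raw counts, with a row per gene ID, a column per tube and no scaling. Per the submitters' processing notes, Trim Galore and STAR were used with GRCz11 (danRer11). Strand setting, counting program, annotation and versions are not given in the sources used, so overlapping and antisense genes cannot be told apart. Of the 12 tubes the 3 labelled siblings were used. After 92 ERCC rows were dropped, counts were divided by a tube's gene counts times 1000000, and genes with 10 or more counts in all 3 tubes were kept. No groups were compared, so no test was run. Python 3.11.15, pandas 2.3.3 and numpy 2.4.6 gave levels, ranks and spread, and edgeR 4.0.16 in R 4.3.3 gave the dispersion, with its script tested on simulated data. TMM (edgeR), DESeq2 1.42.0 size factors and ERCC totals were alternative scalings.

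The genes and lists were chosen with earlier results of these data known. Families were matched by symbol in 44 lists, and 6 lists (perforin and MFAP4, inflammatory, unfolded protein stress, RNA-binding, endoplasmic reticulum cargo, and coats with ESCRT) were added after the data were seen, when 40 misnamed symbols were also taken out. Named genes are the top 30, up to 5 genes per list (12 for receptors and regulators) by mean CPM, the leading or silent markers, the 10 steadiest and 10 widest over 100 CPM, the 10 with the highest level beside a tube at 0, the genes next to the limit, and a and b pairs. ABCA1, CORO1A, CTSK, FOS, IRF8, MCM6, P2RY12, TCIRG1, TFEC, csf3a, ctss2.1, dnajb1b, fcer1g and marco were added after their values were seen. A few genes that fall under these rules are not reported here.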

Additional observations from a re-analysis of the deposited data

How the results depend on the processing

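The number of genes described depends on the count limit. It was 3741 with 10 counts in all 3 tubes, 4528 with 1 count, 3377 with 50 counts, 6197 with 10 counts in at least 2 tubes, and 4368 to 4828 when each tube in turn was left out. The number of genes that held 50% of the counts was 97, also without a limit, 112 without the mitochondrially encoded genes, 71 to 113 when a tube was left out, and 149 without ENSDARG00000080337, an alternative chosen after the data were seen. The median CV was 50.3% by library size, 49.0% with TMM, 49.0% with DESeq2 size factors, 51.5% with spike-in scaling, 46.1% with 50 counts, 34.8% over genes of at least 100 CPM (chosen after the data were seen), and 41.6 to 43.7% when a tube was left out. With fewer tubes the CV is over 2 values. Of 311 named mean levels 0 moved by more than 1.5-fold under TMM, DESeq2 size factors or spike-in scaling, but 28, 15 and 13 did without replicates 1, 2 and 3, a measure chosen after the data were seen. Without replicate 1 JUN averaged 348 CPM against 1299 CPM with all tubes, ctsl.1 181 against 1262 CPM and lgals3bp.1 813 against 1529.7 CPM. The ratio of highest to lowest tube moved beyond its counting error for 250 genes under TMM, 249 under DESeq2 size factors and 290 under spike-in scaling, by at most 1.25, 1.24 and 1.76-fold, and by more than 1.5-fold for 113 under spike-in scaling. Of 50 list shares 5 moved by more than 1 SD without the count limit (complement to 0.0131%, innate receptors 0.104%, solute carriers 2.18%, myeloid factors 1.02%, cell cycle 0.0945%), and 6 without ENSDARG00000080337, chaperones to 10.3% among them. Ranks in a single tube moved for 86 to 105 of the 311 genes. Ranks per coding length were not run, because no table of lengths was used here. No paired analysis was possible because only 1 group was described.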

Other observations

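Of the 3741 genes 2649 fell in none of the lists, and they held 36.7, 37.3 and 35.2% of the counts. The genes named here were chosen after their values were seen. sdc4, a cell surface heparan sulfate proteoglycan, had 2843, 4981 and 3274 CPM, and selenop, a secreted selenium carrier, had 2642, 1850.0 and 2322 CPM. CKB, a brain-type creatine kinase, had 1823, 1824 and 2881 CPM, and UCP2, a carrier of the inner mitochondrial membrane, had 3039, 706 and 847 CPM. UCP2 was high in replicate 1, with a 4.31-fold range by library size. For sdc4 the range was 1.75-fold by library size and 2.31-fold by spike-in scaling.

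TPT1, the translationally controlled tumour protein, had 1029, 2424 and 1088 CPM, and ABCC5, an efflux pump for nucleotides, had 1244, 1641 and 1269 CPM. CNDP2, a cytosolic dipeptidase, had 1580.3, 1076 and 1532 CPM. ATP1B1, the beta chain of the sodium pump, had 1057, 672 and 815 CPM. g0s2, an inhibitor of lipid breakdown, had 950.2, 613 and 309 CPM, and samsn1a had 464, 448 and 553 CPM.

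Gene IDs without a symbol numbered 118 and held 10.4 ± 2.79% of the counts, most of it in ENSDARG00000080337. A further 185 genes had only a clone name, and these held 2.44 ± 0.232%.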
